A study of Rattus norvegicus with 16 samples.

Results

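The genes described here are the amino acid transporter families of the rat kidney, which are the protein-coding genes whose symbol places them in Slc1a, Slc3a, Slc6a, Slc7a, Slc36a, Slc38a or Slc43a. Of 61 such genes in a count table of 32623 genes, 47 had at least 20 counts over the 16 libraries and are the members. The other 14, which include Slc6a2, Slc6a7, Slc6a14, Slc6a15, Slc1a6, Slc1a7, Slc7a3, Slc7a14, Slc36a2, Slc36a3 and Slc38a11, had 0 to 19 counts. RNA from the kidney cortex was sequenced in 4 groups of 4 libraries, split by age (young or old) and by sex. No age in weeks or months is given, every group is listed as untreated, and every library has the genotype Homo, which is not explained. Although the title speaks of diabetic kidney disease, none of the libraries is labelled diabetic. Whether each library is a separate animal is not stated either, so a p-value here speaks of the spread among these libraries, which may be technical.

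The proximal tubule takes back nearly all filtered amino acids. Carriers on the luminal side bring them into the cell with sodium or protons or in exchange for other amino acids, and carriers on the blood side let them out. Several carriers work as pairs of a heavy chain, which brings the pair to the membrane, and a light chain, which does the transport. The heavy chain rBAT (Slc3a1) serves luminal cystine and dibasic amino acid uptake, and mutations in it or in its light chain bAT (Slc7a9) cause cystinuria in humans. The heavy chain 4F2hc (Slc3a2) serves light chains of the blood side.

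Libraries held 10827485 to 35957516 counts in total. Members took 1.18% ± 0.0371 (SD, n = 4) of the counts in young females, 1.09% ± 0.161 in old females, 1.07% ± 0.0819 in young males and 0.503% ± 0.0708 in old males. Among the old males, replicates 1 and 4 most often held the lowest or highest value of their group, in 31 and 30 of the 40 tested members. Replicate 4 was also the shallowest library, the only old male library whose identifier starts with DS, and far below the other libraries for Slc7a13, Slc7a12 and Slc38a3. All young libraries and old female replicates 3 and 4 carry DS, and the other old libraries carry OP, with no explanation in the labels, so values without old male replicate 4 and within DS are given where they bear on a result. Markers of the proximal tubule were present in every library, with the 10 markers of its S1 and S2 segments summing to at least 7148 CPM (counts scaled to a common library total) and the 6 markers of its S3 segment to at least 444 CPM. In whole tissue, fewer cells of a type and less RNA per cell cannot be told apart.

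Per length, the family was dominated by the rBAT system. Slc3a1 averaged 1926 RPKM in young females, 1833 RPKM in old females, 1783 RPKM in young males and 627 RPKM in old males. Its light chain Slc7a13, a carrier of the late proximal tubule, followed with 1775, 1549.9, 1524 and 206 RPKM in the same order of groups. Together these genes made up 72.1 ± 2.95% (SD, n = 4), 71.7 ± 1.69%, 73.1 ± 1.52% and 40.4 ± 15.7% of the summed RPKM of all members. Slc7a12, a light chain known in mouse as a carrier of small neutral amino acids, and Slc6a18, a luminal glycine and neutral amino acid carrier in mouse, came next by the mean over all libraries. Slc3a2, Slc7a9, the creatine carrier Slc6a8, the glutamine carrier Slc38a3, the dibasic amino acid exporter Slc7a7 and the glutamate carrier Slc1a1 completed the highest 10.

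**Figure D1:**
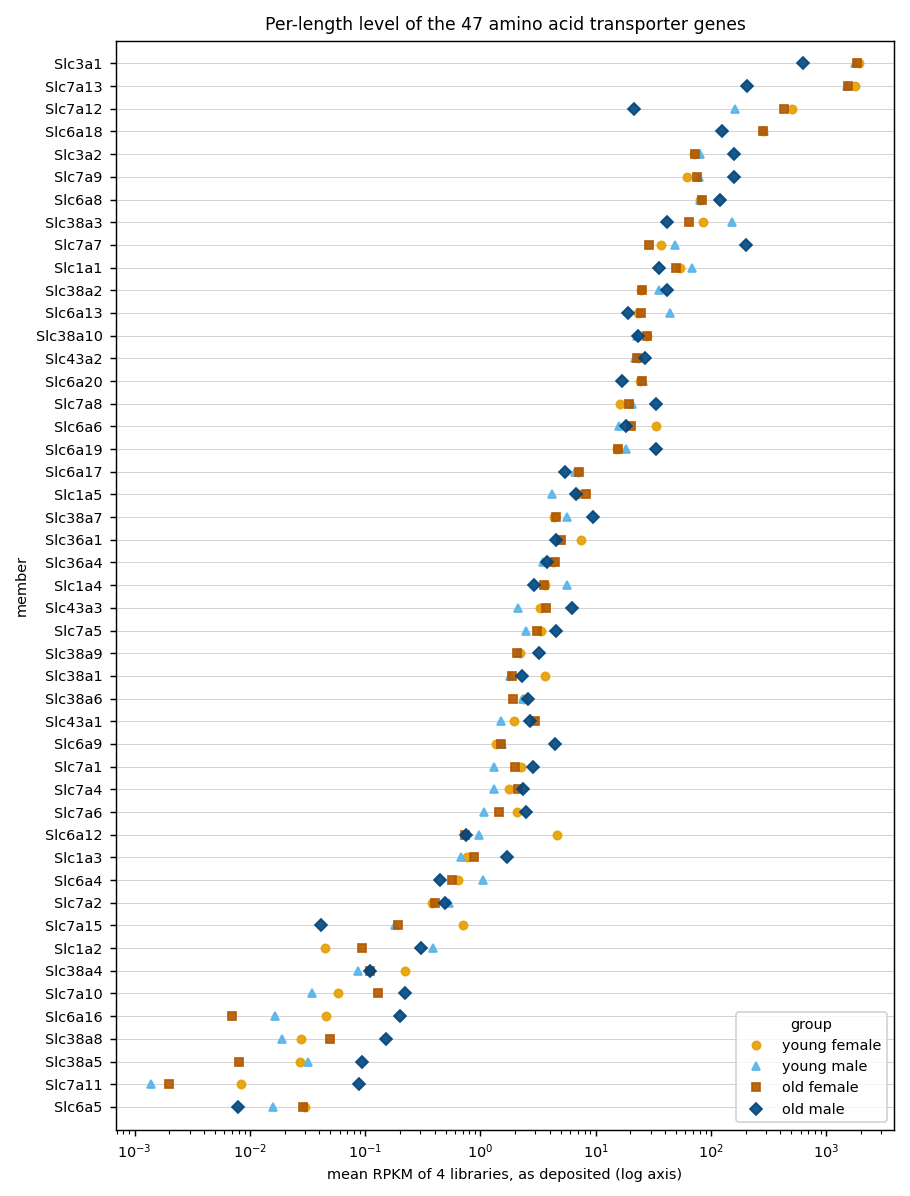
Mean RPKM of 4 libraries on a log axis for each of the 47 members, with 1 marker per group and members ordered by their mean over all libraries. Slc3a1 and Slc7a13 stand highest in 3 groups, and the old male marker lies far to the left of the others for Slc7a13, Slc7a12, Slc3a1 and Slc38a3.

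In males, members went both ways with age. Counts were fitted over all genes with edgeR's quasi-likelihood test, and a gene was called at an adjusted p under 0.05; 40 members passed the filter on low counts. In old against young males 25 of the 40 were called (62.5%), 11 higher and 14 lower, against 50.0% of all 14390 genes tested. At least 2-fold changes were called for 13 members (32.5%), against 15.3% of all genes. The young and old libraries did not overlap for 22 members (55%), against 46.3% of all genes. The median log2 fold change of the members was -0.06, beside -0.0028 over all genes. With library totals alone and no composition factors, the median of all genes moved to 0.32 and the members' calls became 18 higher and 11 lower. All log2 fold changes below are from the first fit unless another is named, and per-library values are CPM scaled with the same factors, in the order of replicates 1 to 4.

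The rBAT heavy chain was lower in old males while its light chain bAT was higher. Slc3a1 stood at 4515, 4337, 5146 and 4689 CPM in young males and at 1871, 1476, 1299.7 and 612 CPM in old males, beside 4176, 4315, 4395 and 4935 CPM in young and 5110.2, 3797, 3956 and 4766 CPM in old females. Every old male library lay below all 12 others. The log2 fold change with age was -1.83 ± 0.23 (SE, adjusted p = 6.79e-06) in males and -0.02 ± 0.22 (SE, adjusted p = 0.981) in females. Slc7a13, whose product pairs with rBAT and carries acidic amino acids and cystine in mouse, stood at 786, 385, 335 and 6.35 CPM in old males against 3453, 3062, 4178 and 3236 CPM in young males. In females it ranged from 3292 to 3889 CPM in the young and from 2648 to 4264 CPM in the old. The old males again lay below every other library, and replicate 4 lay far below the other old males. Its log2 fold change in males was -3.20 ± 0.71 (SE, adjusted p = 0.00132), and -2.79 (adjusted p = 4.86e-07) without old male replicate 4.

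Slc7a9, the light chain that exchanges luminal cystine and dibasic amino acids for neutral ones, went the other way. Its values were 156, 154, 152 and 139 CPM in young males and 184, 232, 219.8 and 339 CPM in old males, which did not overlap. Young females stood at 92.6, 92.7, 127 and 108 CPM and old females at 146, 137, 122 and 124 CPM. The male age difference was 0.69 ± 0.15 (SE, adjusted p = 0.000856) and the female one 0.33 ± 0.15 (SE, adjusted p = 0.21). Per length, the ratio of Slc3a1 to Slc7a9 was 31.3 ± 4.12 (SD, n = 4) in young females, 24.3 ± 3.27 in old females, 22.7 ± 2.23 in young males and 4.42 ± 2.50 in old males. The ratio of Slc3a1 to Slc7a13 was 1.09 ± 0.0890, 1.20 ± 0.102 and 1.18 ± 0.0872 in young females, old females and young males, and ranged from 2.08 to 84.1 in old males.

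The bases before the start of Slc3a1 and Slc7a9, from RefSeq on GRCr8, are printed because these partners went opposite ways, and that of Slc7a12 because it fell along with Slc3a1. Each run is the 250 bases before the start on the gene's strand, 5′ to 3′.
Slc3a1 (chr6:15394750-15394999, minus strand): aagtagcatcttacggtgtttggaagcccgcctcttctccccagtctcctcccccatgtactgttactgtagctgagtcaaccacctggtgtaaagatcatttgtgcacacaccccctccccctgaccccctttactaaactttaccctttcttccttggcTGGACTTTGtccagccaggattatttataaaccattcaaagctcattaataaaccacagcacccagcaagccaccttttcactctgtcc
Slc7a9 (chr1:97246632-97246881, plus strand): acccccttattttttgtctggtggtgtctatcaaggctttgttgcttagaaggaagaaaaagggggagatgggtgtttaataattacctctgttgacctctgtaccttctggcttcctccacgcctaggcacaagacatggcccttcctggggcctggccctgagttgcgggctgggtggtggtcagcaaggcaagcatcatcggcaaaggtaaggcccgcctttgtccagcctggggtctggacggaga
Slc7a12 (chr2:88868104-88868353, minus strand): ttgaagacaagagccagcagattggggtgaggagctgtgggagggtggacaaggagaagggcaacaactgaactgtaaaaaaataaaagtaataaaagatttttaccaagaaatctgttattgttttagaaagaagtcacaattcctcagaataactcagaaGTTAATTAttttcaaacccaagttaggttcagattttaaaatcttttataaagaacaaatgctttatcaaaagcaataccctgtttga
Capitals mark motif matches, searched on both strands. An HNF4 element, spelled CAAAGTCCA, matched the opposite strand of the Slc3a1 run, starting 89 bases before the start, and was found in 1 of 36 members with a sequence and in 0.338% of all 33469 such runs. A part of the HNF1 motif, spelled GTTAATNA, matched Slc7a12 88 bases before the start. It was found in 2 of the 36 members, Slc7a12 and Slc7a15, and in 2.22% of all runs. Slc7a9 held no match to these motifs in this window. A match describes letters and is neither a site nor a cause.

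The related light chains Slc7a12 and Slc7a15 were also lower in old males. Slc7a12 stood at 322, 219, 367 and 341 CPM in young males and 54, 44.8, 33.8 and 2.06 CPM in old males, against 1008, 657, 1088 and 694 CPM in young females and 1112, 606, 644 and 694 CPM in old females. All old males lay below all young males, and all young males lay below all old females. The age difference was -3.19 ± 0.52 (SE, adjusted p = 8.22e-05) in males, and -2.82 (adjusted p = 5.19e-07) without old male replicate 4. Slc7a15, known in mouse as a carrier of aromatic amino acids, was far scarcer, at 0.485 ± 0.404 CPM (SD, n = 4) in young and 0.0888 ± 0.0312 CPM in old males. Its log2 fold change was -2.30 ± 0.79 (SE, adjusted p = 0.0226), and the call was lost without young male replicate 1 (-1.68), in DS libraries alone and with the identifier prefix or the inner medulla score in the fit.

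Of the 5 tested luminal carriers of neutral amino acids, glycine, proline and taurine, 3 were lower in old males, none was higher and 2 were not called, beside 24.6% lower and 25.3% higher among all genes tested. Slc6a18 stood at 894, 929.7, 949.9 and 974 CPM in young males, 456, 368, 348 and 137 CPM in old males, 856, 801, 746 and 864 CPM in young females and 1033, 716, 748 and 878 CPM in old females. Its old male values lay below all others, at -1.52 ± 0.24 (SE, adjusted p = 6.06e-05). Slc6a20, the proline carrier, stood at 88, 81.7, 87.5 and 85 CPM in young and 51, 43.8, 41.9 and 44.7 CPM in old males, with 72.5, 69.1, 68.8 and 74.6 CPM in young and 85.3, 77.1, 69.4 and 79.1 CPM in old females. Male groups did not overlap, and the difference was -0.92 ± 0.07 (SE, adjusted p = 5.05e-08). Where a genome holds a second Slc6a20 copy, counting could split reads between the copies, so this value is less certain. Slc36a1, a proton-coupled carrier, also fell, by 0.43 (log2, adjusted p = 0.048), but the call was lost without young female replicate 1 or young male replicate 1, 2, 3 or 4 or old female replicate 1 or old male replicate 1, 3 or 4 (-0.46 to -0.35). It was lost as well with library totals alone, at -0.09, with no filter, with the replicate block and in DS libraries alone.

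Slc6a19, the main luminal carrier of neutral amino acids and the neighbour of Slc6a18 on chromosome 1, was not called in males. It stood at 74.8, 89.1, 60.9 and 92.4 CPM in young and 90.9, 90.5, 78.3 and 202 CPM in old males, with 38.2, 49.1, 83.3 and 67.1 CPM in young and 58.5, 67.2, 63.2 and 61.6 CPM in old females. Only old male replicate 4 stood out, and the difference was 0.54 ± 0.27 (SE, adjusted p = 0.104), or 0.13 (adjusted p = 0.605) without it. Slc6a19 was called higher with library totals alone, at 0.86 (adjusted p = 0.00813), and with the identifier prefix in the fit, at 0.89 (adjusted p = 0.0173). In DS libraries alone, whose only old male is replicate 4, Slc6a19 was at 1.34. The per-length ratio of Slc6a18 to Slc6a19 was 16.1 ± 3.21 (SD, n = 4) in young males and 4.72 ± 2.60 in old males, against 20.1 ± 7.60 and 18.1 ± 4.10 in young and old females. Slc1a1, the luminal glutamate and aspartate carrier, stood at 268, 299, 299 and 289 CPM in young males and 139, 122, 112 and 96.8 CPM in old males, and at 192, 177, 214 and 209.9 CPM in young and 209.98, 165, 191 and 194 CPM in old females. Old males were lowest and young males highest without overlap, and the male age difference was -1.30 ± 0.10 (SE, adjusted p = 5.96e-08). The neutral amino acid carrier Slc1a4 also fell, by 1.24, and the glial glutamate carrier Slc1a3 rose by 0.95 (log2, adjusted p = 0.000893 and 0.00529). Slc1a5, a neutral amino acid exchanger, was not called. It was called higher with library totals alone, at 0.70 (adjusted p = 0.00284), and with the inner medulla score in the fit, at 0.49 (adjusted p = 0.0227).

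**Figure D2:**
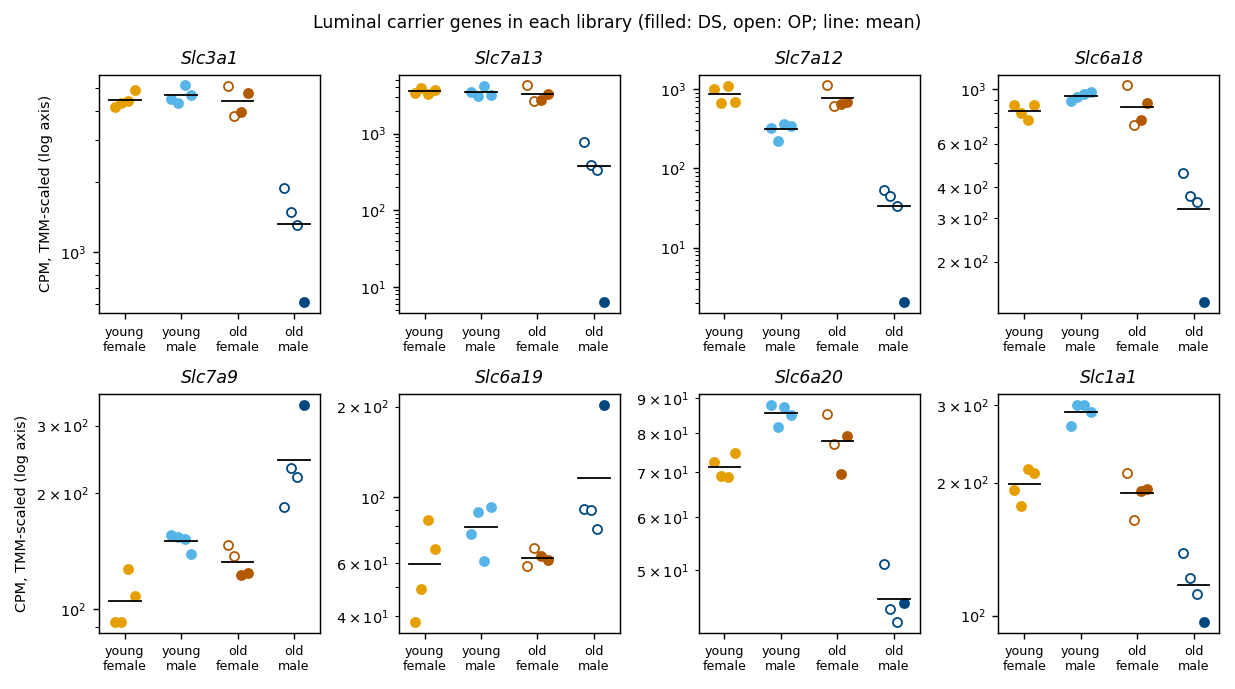
CPM of 8 luminal carrier genes in each of the 16 libraries on log axes, by group, with filled points for DS and open points for OP identifiers and a line at the group mean. Old males lie below all other libraries for Slc3a1, Slc7a13, Slc7a12 and Slc6a18, and replicate 4 of the old males lies far below the rest for Slc7a13 and Slc7a12.

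Of the 5 tested genes of the 4F2hc system, 4 were higher in old males, none was lower, and Slc7a8 was not called, beside 25.3% higher and 24.6% lower among all genes. The heavy chain Slc3a2 stood at 186, 185, 164 and 205 CPM in young males and 227, 276, 262 and 392 CPM in old males, with 114, 133, 185 and 144 CPM in young and 137, 170.2, 156 and 143 CPM in old females. The old males lay above all others, and the difference was 0.65 ± 0.15 (SE, adjusted p = 0.00228). Slc7a7, the light chain that releases dibasic amino acids to the blood and is mutated in lysinuric protein intolerance in humans, stood at 101, 100, 71.4 and 114 CPM in young males and 196, 282, 245 and 550.1 CPM in old males. It was at 34.1, 48.6, 95.3 and 81.9 CPM in young females and 41.6, 61.1, 53 and 56.2 CPM in old females, and old males lay above every other library. Its difference was 1.72 ± 0.31 (SE, adjusted p = 0.000253), and 1.32 (adjusted p = 0.000515) without old male replicate 4. Macrophages also express Slc7a7, and the 6 macrophage markers summed to 56.6 to 64.7 CPM in young and 126 to 195 CPM in old males, with none at 0; their part in the result was not tested.

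Slc7a6, another dibasic exchanger, and Slc7a5, a carrier of large neutral amino acids, were scarcer. Slc7a6 stood at 3.92, 4.13, 3.42 and 5.85 CPM in young and 7.17, 8.15, 8.87 and 8.41 CPM in old males, with 7.67, 10.4, 5.73 and 6.20 CPM in young and 4.74, 5.45, 6.69 and 4.96 CPM in old females. Young males were the low group, and the age difference was 0.92 ± 0.19 (SE, adjusted p = 0.00071) in males. Slc7a5 rose by 0.52 (log2, adjusted p = 0.0225), a call lost without young male replicate 2 or 3 (0.48 to 0.49), with the identifier prefix in the fit (0.56) and in DS libraries alone (0.61). Slc7a8, the main neutral amino acid exchanger of the blood side, stood at 88.8, 110.5, 89.6 and 98.9 CPM in young males and 100.05, 112, 108 and 179 CPM in old males, which overlapped, and at 47.4, 58.2, 95.9 and 67.2 CPM in young and 72, 104, 77 and 79.8 CPM in old females. Its male age difference was 0.36 ± 0.20 (SE, adjusted p = 0.145). It was called with library totals alone, at 0.69 (adjusted p = 0.00439), and stood at 0.14 (adjusted p = 0.537) without old male replicate 4. In DS libraries alone, whose only old male is that library, it stood at 0.88. The per-length ratio of Slc7a7 to Slc7a8 was 2.34 ± 0.415 (SD, n = 4) in young males and 5.74 ± 1.10 in old males.

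Of 3 tested cationic carriers 2 were higher in old males, and of 3 SLC43 carriers 1 was; none was lower. Among all genes 25.3% were higher. Slc7a1, the main carrier of arginine and lysine in most cells, stood at 10.8, 7.87, 8.92 and 10.7 CPM in young and 15.9, 16.3, 20.6 and 13.9 CPM in old males, and at 13.5, 10.6, 14.8 and 19.2 CPM in young and 12.4, 15.1, 16.3 and 10.03 CPM in old females. Young males were lowest on average, and the age difference was 0.81 ± 0.18 (SE, adjusted p = 0.00151), a call lost in DS libraries alone at 0.53 (adjusted p = 0.201). Slc43a3, a relative of the neutral amino acid carriers that moves purine nucleobases, stood at 5.71, 5.80, 6.40 and 8.04 CPM in young and 12.8, 13.4, 16.7 and 17.8 CPM in old males, and at 9.76, 8.92, 8.71 and 7.97 CPM in young and 7.42, 9.61, 10.9 and 13.7 CPM in old females. Its male groups did not overlap, and the difference was 1.22 ± 0.17 (SE, adjusted p = 1.65e-05). Slc7a4 was called higher at 0.53 (adjusted p = 0.0457), a call lost without young female replicate 1 or 3 or young male replicate 1, 3 or 4 or old female replicate 1, 2, 3 or 4 or old male replicate 1 or 2 (0.39 to 0.53) and in 6 of the 10 other settings, while Slc7a2, Slc43a1 and Slc43a2 were not called.
The 250 bases before the start of Slc7a1 (RefSeq, GRCr8) are printed because it is a member called higher in old males whose run holds a motif of the amino acid response.
Slc7a1 (chr12:11664238-11664487, plus strand): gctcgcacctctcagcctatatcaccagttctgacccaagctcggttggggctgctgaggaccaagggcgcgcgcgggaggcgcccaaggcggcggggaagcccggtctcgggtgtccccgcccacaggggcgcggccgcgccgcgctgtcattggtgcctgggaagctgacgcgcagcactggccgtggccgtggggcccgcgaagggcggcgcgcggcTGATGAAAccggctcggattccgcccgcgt
Capitals mark a C/EBP-ATF response element, spelled TGATGNAA and searched on both strands, 30 bases before the start. It was found in 3 of 36 members, Slc1a4, Slc38a1 and Slc7a1, and in 3.40% of all 33469 runs. In old males Slc1a4 fell and Slc38a1 was not called.

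In the SLC38 family, 8 members were tested; 1 rose, 2 fell and 5 were not called in old males, beside 25.3% and 24.6% of all genes that rose and fell. Slc38a3, which supplies glutamine from the blood side for ammonia production, stood at 447, 460.4, 507 and 223 CPM in young males and 138, 130.1, 85.6 and 3.88 CPM in old males, and at 202, 199, 195 and 212 CPM in young and 201, 197, 131 and 115 CPM in old females. Young and old males did not overlap, and old male replicate 4 lay far below the rest. The difference was -2.19 ± 0.56 (SE, adjusted p = 0.00385), and -1.80 (adjusted p = 3.08e-05) without that library. Slc38a7, a lysosomal glutamine exporter, stood at 23.6, 27, 21.8 and 22.9 CPM in young and 21.8, 31.1, 35.7 and 39.2 CPM in old males, and Slc38a10 at 97.2, 94.2, 97 and 94.3 and 84.2, 80.8, 74.3 and 73 CPM. Their differences were 0.42 ± 0.15 (SE, adjusted p = 0.0235) and -0.29 ± 0.07 (SE, adjusted p = 0.00344), and with library totals alone that of Slc38a10 turned to 0.032 and was no longer called. The Slc38a7 call was lost without young male replicate 3 or 4 or old male replicate 3 or 4 (0.32 to 0.40), and with the inner medulla score in the fit (0.34). Slc38a1, Slc38a2, Slc38a4, Slc38a6 and Slc38a9, the last a lysosomal arginine sensor, were not called. With library totals alone Slc38a9 was called higher, at 0.60 (adjusted p = 0.000856).

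Among the other SLC6 carriers, 1 of 6 tested rose and 3 fell in old males, beside 25.3% and 24.6% of all genes. Slc6a9, a glycine carrier, stood at 6.12, 5.64, 5.11 and 5.60 CPM in young and 12.4, 11.4, 14.3 and 13.9 CPM in old males, with 3.54, 4.42, 4.93 and 4.97 CPM in young and 4.45, 6.73, 5.52 and 3.57 CPM in old females. Old males lay above all other libraries, at 1.21 ± 0.16 (SE, adjusted p = 9.61e-06). Slc6a13, a carrier of GABA, betaine and taurine, stood at 114, 101, 126 and 139 CPM in young and 54.3, 41.4, 41.9 and 28.9 CPM in old males, with 50.2, 50.5, 64.9 and 57.5 CPM in young and 67.5, 51.5, 57.4 and 68.6 CPM in old females. Young males were the high group, without overlap, and the difference was -1.52 ± 0.15 (SE, adjusted p = 7.56e-07). The serotonin carrier Slc6a4 fell by 1.5 and Slc6a17, a vesicular carrier of neurons, fell by 0.62 (log2, adjusted p = 0.000643 and 0.00442). Slc6a17 was at -0.29 and not called with library totals alone (adjusted p = 0.109). Slc6a8 and Slc6a12 were not called. With library totals alone Slc6a8 was called higher, at 0.59 (adjusted p = 0.000341).

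**Figure D3:**
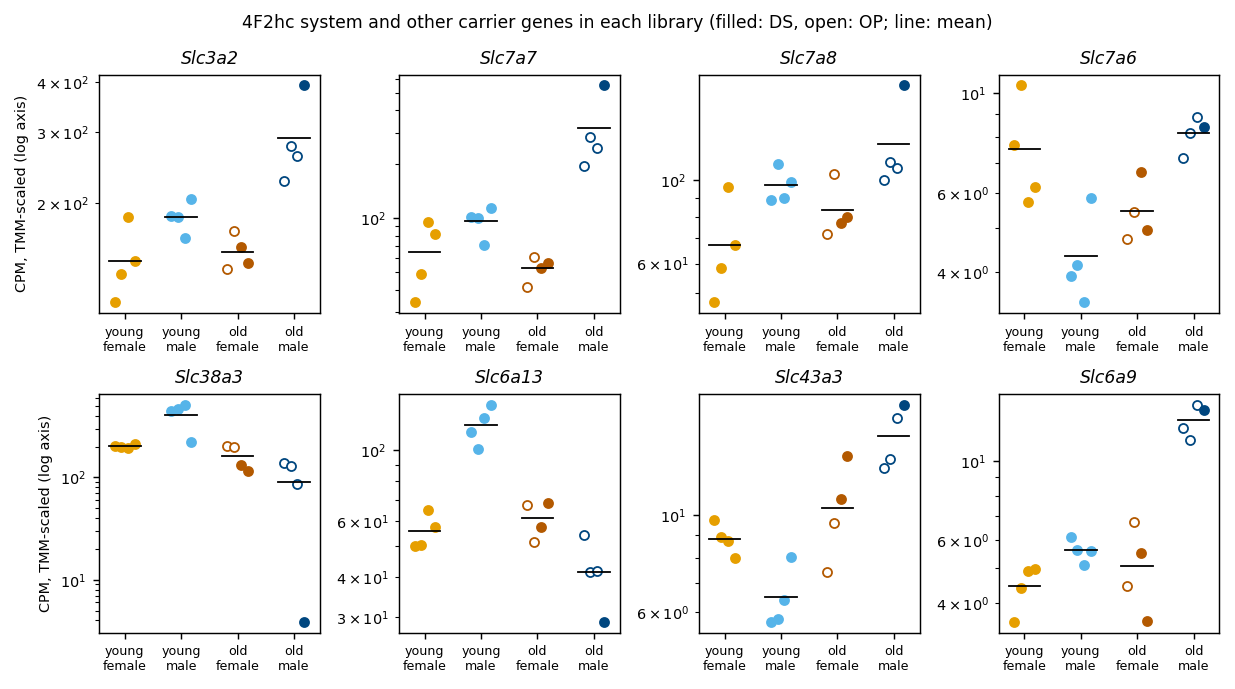
CPM of 8 genes of the 4F2hc system and other carriers in each of the 16 libraries on log axes, by group, with filled points for DS and open points for OP identifiers and a line at the group mean. Old males lie above all other libraries for Slc3a2, Slc7a7 and Slc6a9, and old male replicate 4 is the lowest point for Slc38a3.

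Other markers moved with these male differences. The S3 markers summed to 1732, 1810.2, 1876 and 1859.96 CPM in young males and 890.3, 839, 778 and 444 CPM in old males, and the S1 and S2 markers to 12800.3 to 13913 and 7148 to 7364 CPM. Of the 10 S1 and S2 markers 3 rose, Slc5a2, Slc4a4 and Slc2a2, 6 fell and 1 was not called. The 6 tubule injury markers, among them Havcr1 and Lcn2, summed to 302 to 495 CPM in young and 8876, 14136, 12484 and 16447 CPM in old males. B and plasma cell markers summed to 9.22 to 14.1 and 147 to 331 CPM, and T and NK cell markers to 3.51 to 5.20 and 27.1 to 39.9 CPM. In old males none of the markers of these lists was at 0. The part of each in the members' differences was not tested. Within DS, where old male replicate 4 is the only old male and is assumed to vary like the other groups, Slc3a1 differed with age by -2.94, Slc7a13 by -9.11, Slc38a3 by -6.73 and Slc7a7 by 2.50 on the log2 scale. With the identifier prefix as a covariate the values of these genes were -2.30, -4.79, -3.89 and 2.10. Each kept its direction in both, and its call with the covariate. For each of these genes old male replicate 4 was the old male furthest from the young males. The direction within DS was therefore set by that library, and the covariate fit takes its DS level of old males from it alone.

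In females few members changed with age. Of the 40 tested, 3 fell (7.5%) and none rose, against 5.71% of all genes tested, of which 2.54% rose and 3.17% fell. 1 member was called past 2-fold (2.5%), against 1.81% of all genes, and 4 did not overlap between the ages (10%), against 11.1%. At an unadjusted p under 0.05 there were 8. Slc6a12, the betaine carrier that lets medullary cells hold osmolytes, stood at 14, 20.3, 11 and 5.31 CPM in young and 1.41, 0.577, 3.17 and 3.20 CPM in old females, and at 4.40, 1.03, 2.97 and 3.57 CPM in young and 2.34, 1.78, 1.80 and 1.48 CPM in old males. Young females were high, and the difference was -2.58 ± 0.45 (SE, adjusted p = 0.00468). Slc38a1, a sodium-coupled carrier of glutamine and other small neutral amino acids, stood at 9.91, 7.09, 6.53 and 8.99 CPM in young and 3.25, 3.72, 5.80 and 4.84 CPM in old females, and at 5.09, 4.05, 4.49 and 4.63 CPM in young and 5.17, 4.49, 4.82 and 4.04 CPM in old males. The taurine carrier Slc6a6, also an osmolyte carrier, stood at 84.2, 82.6, 70.5 and 118 CPM in young and 63.5, 40.1, 66.3 and 56 CPM in old females, and at 55.2, 39.8, 46.8 and 51.6 CPM in young and 54.6, 44.9, 37.6 and 39.6 CPM in old males. These fell by 0.89 ± 0.17 (SE, adjusted p = 0.00795) and 0.65 ± 0.17 (SE, adjusted p = 0.0336) on the log2 scale.

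A score of inner medulla genes, their mean log2 CPM over 6 genes, was set beside these carriers. It ranged from 4.37 to 5.64 in young females and from 2.01 to 3.14 in young males, and was 2.29 and 2.39 in the OP and 4.27 and 4.24 in the DS old females. Every old female thus scored below every young female, so a fit with the score separates age from score poorly there. Among young females, replicate 4 had the highest score and the lowest Slc6a12. How closely these carriers follow the score was not tested. With the score in the fit no member was called with age in females, where Slc6a12 was at -1.81, Slc38a1 at -0.39 and Slc6a6 at -0.22 (adjusted p = 0.153, 0.331 and 0.675). Within DS libraries their values were -1.97, -0.61 and -0.54, none of them called, and a different member, Slc36a1, was called lower. With the identifier prefix as a covariate Slc6a12 was at -2.28 and Slc38a1 at -0.78, both called lower (adjusted p = 0.0199 and 0.0344). In that fit Slc36a1 was also called lower, at -0.75 (adjusted p = 0.0255), and Slc6a6 was not called, at -0.63 (adjusted p = 0.0867). The call of Slc6a6 did not hold without young female replicate 1, 2 or 4 or old female replicate 2 or 4 (-0.69 to -0.49).

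**Figure D4:**
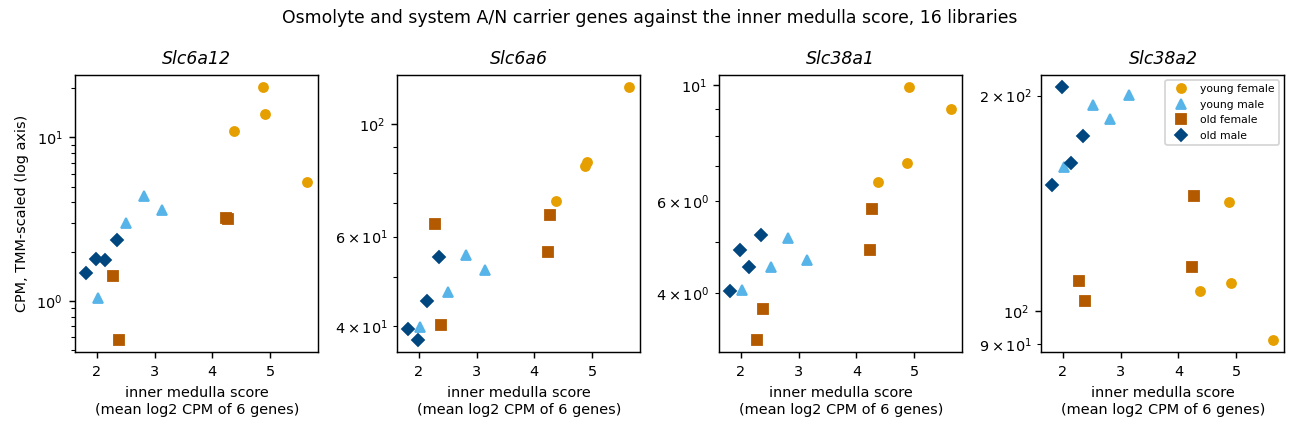
CPM on log axes of Slc6a12, Slc6a6, Slc38a1 and Slc38a2 against the inner medulla score of each of the 16 libraries, with 1 marker shape per group. Young females, with scores of 4.37 to 5.64, hold the highest values of Slc6a12.

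Between young males and young females 16 of 40 members were called (40%), 8 in each direction, against 31.8% of all genes tested. The groups did not overlap for 15 members (37.5%), against 31.1% of all genes, and 4 were called past 2-fold (10%), against 8.12%. With library totals alone the split was 3 higher and 11 lower in males. Higher in young males were Slc6a13 at 1.11 ± 0.15 (SE, adjusted p = 4.05e-05), Slc1a1 at 0.54 ± 0.10 (SE, adjusted p = 0.000547), Slc38a2, a system A carrier of small neutral amino acids, at 0.72 ± 0.13 (SE, adjusted p = 0.00067), Slc6a20 at 0.26, Slc38a7 at 0.54, Slc7a9 at 0.52, and Slc1a4 and Slc6a4. Slc38a2 stood at 109.6, 142, 107 and 91.3 CPM in young females, 185, 159, 194 and 200.4 CPM in young males, 110.2, 104, 145 and 115 CPM in the old females and 176, 161, 205 and 149.97 CPM in old males, and within each age males lay above females. Lower in young males were the osmolyte carriers Slc6a12 and Slc6a6 at -2.05 and -0.88, Slc38a1 at -0.83, Slc7a6 at -0.80, Slc7a1 at -0.61 and Slc1a5 at -0.57. Slc1a5, an exchanger of glutamine and other neutral amino acids, stood at 19.3, 15.8, 15.3 and 25.4 CPM in young females and 12.8, 13.2, 11.7 and 13.6 CPM in young males. Slc7a12 was lower at -1.47 ± 0.48 (SE, adjusted p = 0.0279), and Slc7a15 at -1.71. Slc38a3 was not called, but without old male replicate 4 it was called higher in young males, at 1.01 (adjusted p = 0.0028). With that inner medulla score in the fit 3 calls were left, Slc1a1, Slc6a13 and Slc38a2, all higher in males, at 0.60, 1.32 and 0.97. Young males and young females did not overlap on the score (2.01 to 3.14 and 4.37 to 5.64), so this fit separates sex from score poorly. The calls of Slc6a20 (0.08), Slc38a7 (0.36), Slc7a9 (0.34), Slc1a4 and Slc6a4 were lost with library totals alone. Calls were lost for Slc7a12 without young female replicate 1 or 3 or young male replicate 1 or 2 (-1.48 to -1.33), for Slc7a9 without young female replicate 1 or 2 (0.45), for Slc7a1 without young female replicate 4 or young male replicate 2 or 3 (-0.57 to -0.44) and for Slc1a5 without young female replicate 4 or young male replicate 3 (-0.52 to -0.39). The call of Slc7a15 was lost without young female replicate 1 or young male replicate 2, 3 or 4 (-1.72 to -1.22), that of Slc1a4 without young female replicate 1, 2 or 3 or young male replicate 1, 2 or 3 (0.72 to 0.78), and that of Slc6a4 without young female replicate 1, 3 or 4 or young male replicate 2 or 4 (0.73 to 0.88).

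Between old males and old females 25 of 40 members were called (62.5%), 13 higher and 12 lower, against 49.3% of all genes tested, 25.5% higher and 23.8% lower. The groups did not overlap for 18 members (45%), against 44.6% of all genes, and 7 were called past 2-fold (17.5%), against 15.8%. With library totals alone the split was 16 higher and 9 lower. Slc7a12 was lower in males at -4.48 ± 0.55 (SE, adjusted p = 4.34e-06), Slc7a13 at -3.10 ± 0.71 (SE, adjusted p = 0.00159), Slc3a1 at -1.74 ± 0.23 (SE, adjusted p = 9.48e-06) and Slc6a18 at -1.37 ± 0.24 (SE, adjusted p = 0.000153). Slc6a20, Slc1a1 and Slc6a13 were lower at -0.78, -0.69 and -0.55, in old rats, and higher in males in young rats. With library totals alone the Slc6a13 call in old rats was lost at -0.35 (adjusted p = 0.0567) and the Slc6a20 call in young rats at 0.08 (adjusted p = 0.348). With the inner medulla score in the fit Slc6a13 in old rats was at -0.44 (adjusted p = 0.0701). Slc7a7 at 2.58 ± 0.32 (SE, adjusted p = 6.04e-06), Slc6a9 at 1.36 ± 0.16 (SE, adjusted p = 2.7e-06), Slc3a2 at 0.93, Slc7a9 at 0.88 and Slc38a7 at 0.87 were higher. Slc6a19 and Slc7a8 were called higher at 0.87 and 0.58, and without old male replicate 4 at 0.46 and 0.35 with adjusted p = 0.0585 and 0.109. Slc38a3 was at -0.84 ± 0.54 (SE, adjusted p = 0.216). It was called with the identifier prefix as a covariate, at -1.70 (adjusted p = 0.0151). The other calls were Slc7a6, Slc1a3, Slc43a3, Slc38a2, Slc38a9 and Slc6a8, higher by 0.31 to 0.71, and Slc7a15, Slc1a5, Slc6a17, Slc38a10 and Slc36a4, lower, at -2.26 to -0.44. In DS libraries alone Slc38a2 was at 0.19, Slc43a3 at 0.52 and Slc7a6 at 0.52, none of them called (adjusted p = 0.564, 0.0915 and 0.323). Calls were lost for Slc7a8 without old female replicate 1, 3 or 4 or old male replicate 4 (0.35 to 0.56), for Slc1a3 without old female replicate 1 or 4 or old male replicate 3 or 4 (0.51 to 0.69) and for Slc1a5 without old female replicate 2 or 3 or old male replicate 2 (-0.45 to -0.39). The call of Slc36a4 was lost without old female replicate 1 or old male replicate 2 or 4 (-0.44 to -0.35), that of Slc7a15 without old female replicate 4 (-1.44), and that of Slc6a8 without young female replicate 2 or 3 or young male replicate 1, 3 or 4 or old female replicate 1, 2, 3 or 4 or old male replicate 2 or 4 (0.19 to 0.34). The old groups share libraries with the age comparisons, so these values are not separate evidence of the male pattern.

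**Figure D5:**
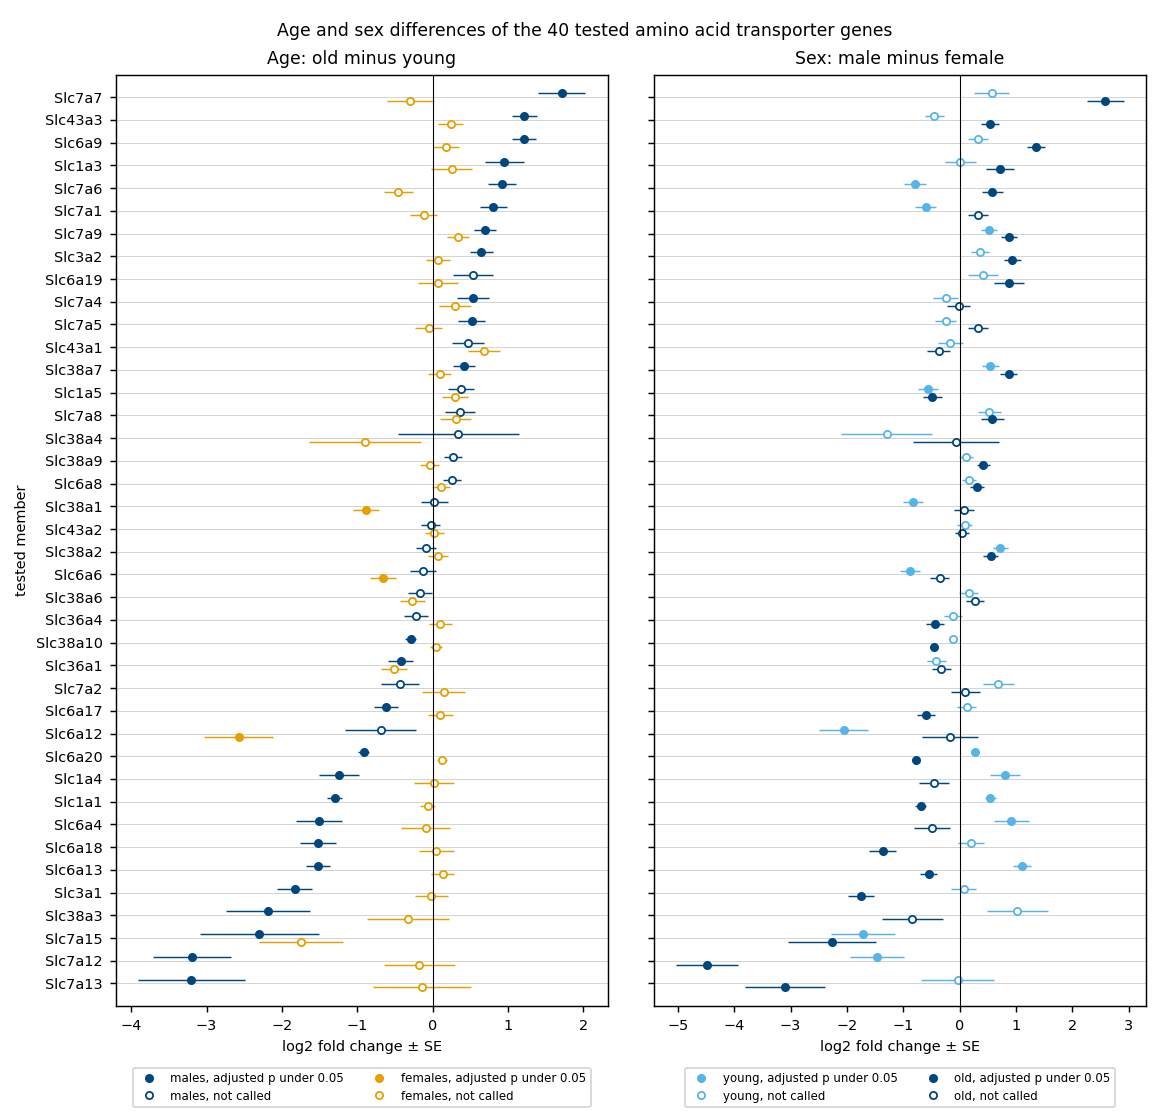
Log2 fold change with its SE for the 40 tested members, with age differences (old minus young) in males and females on the left and sex differences (male minus female) in young and old rats on the right; filled points have an adjusted p under 0.05. Members are ordered by the male age difference, from Slc7a7 at 1.72 to Slc7a13 at -3.20, where the female values are -0.30 and -0.14.

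The age-by-sex contrast tests whether the age difference in males differed from that in females. It called 19 members (47.5%), 8 with a higher and 11 with a lower change in males, against 38.7% of all genes tested, 19.4% higher and 19.3% lower. With library totals alone the split was 15 and 7. Slc7a13 was at -3.06 ± 0.94 (SE, adjusted p = 0.0168), Slc7a12 at -3.02 ± 0.68 (SE, adjusted p = 0.00243), Slc3a1 at -1.81 ± 0.32 (SE, adjusted p = 0.000317) and Slc6a18 at -1.56 ± 0.33 (SE, adjusted p = 0.00145). Slc1a1, Slc6a13 and Slc6a20 were at -1.23, -1.66 and -1.04. Slc7a7 at 2.01 ± 0.44 (SE, adjusted p = 0.00188) and Slc7a6 at 1.38 ± 0.27 (SE, adjusted p = 0.000766) led the positive side, with Slc6a9 at 1.03 and Slc43a3 at 0.98. Slc7a9, called higher with age in males and not in females, was not called here, at 0.36 ± 0.21 (SE, adjusted p = 0.182). With library totals alone it was called, at 0.74 (adjusted p = 0.00559). It was at 0.93 in DS libraries alone, whose only old male is replicate 4, and at 0.17 (adjusted p = 0.394) without that library. Slc38a3 was at -1.86 ± 0.77 (SE, adjusted p = 0.0658), and at -1.46 (adjusted p = 0.00279) without old male replicate 4. The call of Slc3a2, at 0.57, was lost without young female replicate 3 or 4 or young male replicate 1, 2 or 3 or old female replicate 1, 3 or 4 or old male replicate 2 or 4 (0.40 to 0.60). That of Slc6a12, at 1.89, was lost without young female replicate 1 or 2 or young male replicate 2 or 3 or old female replicate 1 or 2 or old male replicate 1 (1.57 to 1.88). It was also lost with the inner medulla score in the fit (1.47, adjusted p = 0.092), and the value was 0.94 in DS libraries alone. The call of Slc6a4, at -1.41, was lost without old female replicate 4 (-1.22). In DS libraries alone the calls of Slc7a1 (0.68) and Slc38a1 (0.43) were lost, and with library totals alone those of Slc6a17 (-0.34), Slc1a4 (-0.87), Slc6a4 (-1.03) and Slc38a10. The first fit called Slc43a1, Slc43a2, Slc38a4, Slc38a6 and Slc7a2 in none of the 5 comparisons. With library totals alone Slc43a1 (0.80, adjusted p = 0.00463) and Slc43a2 (0.30, adjusted p = 0.0343) were called higher with age in males. Slc38a6 was then called higher in old males than in old females (0.47, adjusted p = 0.0228). Without old male replicate 4 Slc43a1 was called lower in old males than in old females (-0.52, adjusted p = 0.0406).

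The other 7 members did not pass the filter on low counts and are outside the fit above. The cystine and glutamate exchanger Slc7a11 had 4 counts over the young females, 1 over the old females, 1 over the young males and 72 over the old males. Slc6a16, an SLC6 member without a settled substrate, had 5, 1, 2 and 42 counts in the same order, and Slc38a5, a glutamine carrier, had 3, 1, 4 and 15. These 3 genes reached the minimum of 20 counts through the old males, so their counts are given with no test. Slc38a8 had 2, 4, 2 and 13 counts, and it too reached the minimum through that group. Slc7a10, a carrier of small neutral amino acids, had 6, 15, 4 and 37 counts, the glutamate carrier Slc1a2 had 2, 5, 20 and 25, and the glycine carrier Slc6a5 had 12, 13, 7 and 5. In a fit without the filter Slc7a10 was at 2.25 with age in males (adjusted p = 0.0138), Slc1a2 at 3.06 in young males against young females (0.0282) and Slc6a5 at -1.95 in old males against old females (0.0344).

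The count minimum that defines the members left Slc38a8 with 21 and Slc38a5 with 23 counts just inside, and Slc6a3 with 19 and Slc6a11 with 18 just outside.

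Genes that work with these carriers were read from lists made for this tissue. Of 6 accessory genes of luminal carriers, 5 fell and none rose in old against young males. They include Cltrn, which brings SLC6 carriers to the membrane, at -0.47, the peptidase Anpep at -1.95, and the scaffolds Pdzk1 and Slc9a3r1 at -0.80 and -0.75 on the log2 scale. Among all genes 24.6% fell and 25.3% rose. In females none of the 6 was called with age, with Cltrn at 0.10. Of 10 tested genes of glutamine breakdown and ammonia handling, 2 rose and 7 fell in old males. Glud1, which releases ammonia from glutamate, Glul, the glutamine synthetase, and the exchanger Slc9a3 were at -0.93, -1.13 and -0.88. In females Slc9a3 alone of these was called with age, at -0.52. The lists were made with earlier results of these data known.

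Amino acid response genes driven by ATF4 had 29 tested genes, of which 10 rose, 3 fell and 16 were not called in old males. Asns, the asparagine synthetase, rose by 1.21, Trib3 by 2.07, Atf3 by 2.65 and Mthfd2 by 1.22. Of 25 tested genes of lysosomal amino acid sensing by mTORC1, none rose and 8 fell, with Lamtor5 at -0.87 and Mtor at -0.27. Of 17 tested amino acid and peptide carriers of other families, 3 rose and 7 fell, with the mitochondrial carriers Slc25a13 at -1.23 and Slc25a38 at -0.97, the peptide carrier Slc15a2 at -1.71 and Sfxn3 at 0.73. Among all genes tested, 25.3% rose and 24.6% fell in old males. Genes of the hypertonic response other than the carriers were read beside the osmolyte carriers. Of 7 tested, 2 fell and none rose with age in females, Nfat5 at -0.70 and the urea carrier Slc14a2 at -3.41, beside 3.17% of all genes lower, and 5 were lower and none higher in young males than in young females, beside 15.7% lower.

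Some members lie side by side in the genome. By gene order in RefSeq (GRCr8), Slc6a18 and Slc6a19 on chromosome 1, Slc6a12 and Slc6a13 on chromosome 4, and Slc38a1, Slc38a2 and Slc38a4 on chromosome 7 have no protein-coding gene between them. Within these neighbours the male age differences were -1.52 and 0.54, -0.69 and -1.52, and 0.03, -0.09 and 0.34 (log2). In young males against young females Slc6a12 was at -2.05 and Slc6a13 at 1.11, and Slc38a1 at -0.83 and Slc38a2 at 0.72, each pair with 1 called lower and 1 called higher.

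The authors' deposited tables list genes past a log2 change of 1. The authors' deposited table of young against old males lists 12 members among 1974 genes, that of old males against old females 6 of 2019, that of young males against young females 5 of 1002 and that of young against old females 2 of 291. In the authors' deposited table Slc38a3 is listed between young males and young females at 1.01 (false discovery rate 4.76e-07), where the fit used here gave 1.02 ± 0.54 (SE, adjusted p = 0.168). Without old male replicate 4, which is in neither of these groups, the same fit gave 1.01 ± 0.23 (SE, adjusted p = 0.0028). In the authors' deposited table Slc7a15 is listed for young minus old females at 1.77 (false discovery rate 0.00943), where the fit used here gave -1.75 ± 0.56 (SE, adjusted p = 0.0805) for old minus young.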

How the data were processed

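Per the labels' protocols, an RNeasy Micro kit served for RNA and a TruSeq Stranded mRNA kit for the libraries. The submitters' processing notes name Rnor_6.0 and edgeR 3.8.6 without a role. What aligned and counted the reads is not given in the sources used here. Strand use is not given either, which leaves overlapping genes and near-identical copies uncertain. The authors deposited counts per gene, used as deposited, and RPKM values, which equal the count scaled by the library total and the listed length plus 1 (largest relative difference 7.6e-16). The authors also deposited gene lists that pair a log2 fold change with a false discovery rate, an adjusted p-value by the file headers.

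Genes were kept with filterByExpr (14390 tested, 18233 not) and fitted with edgeR 4.0.16 (R 4.3.3, quasi-likelihood test, TMM factors, 1 mean per group over all 16 libraries, two-sided, Benjamini-Hochberg over all tested genes, threshold 0.05). The SE is the log2 fold change over the root of F. The procedure was run on simulated counts in which few genes were changed, equally up and down, in old males alone. That setting does not cover changes as broad as those found here. Alternatives were RLE factors, library totals alone, DESeq2 1.42.0, no filter, a filter of CPM 1 in 4 libraries, fits of the compared groups alone or of DS libraries alone, a replicate block, covariates for the identifier prefix or the inner medulla score, and leaving out each library. Chi-square per degree of freedom between libraries of a group was 6.28 to 49.5, so none is a copy of another. The labels do not say whether replicate numbers pair the samples. Same-numbered libraries correlated at -0.131 to 0.204, over 0.1 in 4 of 24 pairs. Differently numbered pairs were not computed beside them, so these values cannot settle whether samples were paired. Chromosome Y genes Kdm5d and Eif2s3y were at 0 in every female library and present in every male library. Ddx3y, also looked at, had 0 to 2 counts in the libraries of either sex and did not separate them.

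The members and lists were chosen with earlier results of these data known. Members given with each library's value are the up to 6 per direction and comparison (4 in the age-by-sex contrast) with the smallest p among those called with a mean CPM of at least 1, and 10 members with known tubule roles. From each pathway list up to 4 genes with the smallest p were named; Cltrn was added after its values were seen, and some genes the rule names are not reported here. Promoters came from RefSeq (GRCr8), matched by symbol for 36 of 47 members. Depth sets the precision of scarce members.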

Additional observations from a re-analysis of the deposited data

Results flagged for a closer look

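Among 96 groups of 4 libraries examined, 2 had a library far from the other 3, and chance sets apart about 1 group in 20. Slc6a19, the luminal neutral amino acid carrier, was at 202 CPM in old male replicate 4 against 78.3 to 90.9 CPM in the other old males. Slc7a8, the blood-side neutral exchanger, was at 179 CPM in the same library against 100.05 to 112 CPM.

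The age difference in males differed from that in females for 19 members by the age-by-sex contrast of edgeR's quasi-likelihood test. Male changes were above female changes for Slc7a6 at 1.38, Slc7a7 at 2.01, Slc6a9 at 1.03, Slc43a3 at 0.98, Slc38a1 at 0.91, Slc7a1 at 0.93, Slc6a12 at 1.89 and Slc3a2 at 0.57 (log2). They were below for Slc6a20 at -1.04, Slc1a1 at -1.23, Slc6a13 at -1.66, Slc3a1 at -1.81, Slc6a18 at -1.56, Slc7a12 at -3.02, Slc1a4 at -1.26, Slc7a13 at -3.06, Slc38a10 at -0.34, Slc6a4 at -1.41 and Slc6a17 at -0.72.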

How the results depend on the processing

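The count of members called with age in males was 23 to 29 in the other settings and 22 to 27 with each library left out. With age in females the main count of 3 became 1 in DS libraries alone and 0 when the inner medulla score entered the fit, and 2 to 3 with a library left out. Between young males and females 16 became 3 with that score, which did not overlap between these groups. The count was 11 to 20 with a library left out, lowest without young female replicate 1 or young male replicate 2 and highest without old male replicate 4. Between old males and females it was 21 to 27 and in the age-by-sex contrast 18 to 21 with a library left out. With the replicate number as a block the 5 counts were 23, 3, 19, 25 and 19. Of 88 called gene values, 44 stayed called in every setting, and 2088 of 2267 values under other settings kept direction and call, while 175 lost the call and 4 turned. Values not called in the main fit were left out, so calls gained in other settings are not in these counts. Slc38a10 turned to 0.032 with age in males and to 0.041 in the age-by-sex contrast with library totals alone. Slc7a15 turned to 0.16 between young males and females with the inner medulla score, and Slc7a4 to -0.11 with age in males in DS alone. The cause was not tested. DS alone has 1 old male, so that fit assumes it varies like the other groups. Depth limits the 7 members outside the main fit.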
